A study of Mus musculus with 10 samples.

Results

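The genes described here are 53 transcription factors of lineage specification and patterning outside the Hox clusters, such as the endoderm factors Sox17 and Gata6, the neural factors Pax6 and Gbx2, the cardiac factor Nkx2-5 and the kidney and gonad factor Wt1. They were taken by name, with no threshold on any value of these arrays. Of the 53 factors, 52 could be measured, out of 18193 genes with a probe set of their own on the array. Pax2 has no probe set under its symbol alone in the annotation used and was not analysed here. Where a factor has several probe sets (sets of short probes to 1 transcript), the one with the highest mean over all arrays stands for it. The factors fall into 7 groups by role, with 6 for endoderm and primitive endoderm, 4 for the primitive streak and early mesoderm, 19 for the neural plate and neural tube, 3 proneural basic helix-loop-helix factors, 11 for heart, limb, vessel and blood, 5 for kidney, gonad and placode including Pax2, and 5 for neural crest and skeleton.

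In embryonic stem cells (ESCs), genes of this kind are known as classic targets of the Polycomb group, chromatin complexes that methylate histone H3 and ubiquitinate histone H2A and so keep lineage programmes off until a cell differentiates. Their promoters are often rich in CG dinucleotides. Cohesin is a ring-shaped complex that holds DNA segments together and takes part in chromatin looping. Smc3 is a core part of the ring, and Wapal (gene symbol Wapl) is the factor that helps release cohesin from chromatin. Wapal depletion has been studied for its part in Polycomb silencing, which is the question that these factors bear on here. No chromatin mark was measured on these arrays.

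CJ9 ESCs, a mouse line of 129svj origin, were infected for 48 h with lentivirus in polybrene (10 µg/mL), and then kept until 48 h after infection in medium with LIF and puromycin (4 µg/mL). The virus carried no hairpin (Empty Vector, the control) or it encoded a short-hairpin RNA (shRNA) that targets Wapal or Smc3, with separate hairpins named shRNA1 and shRNA2 for each target. This gives 5 groups of 2 arrays each, namely the control and both hairpins of Wapal and of Smc3. Cells were puromycin-selected pools and not clones. The same 2 Empty Vector arrays are the control of every comparison, and the study's methods call the replicates biological. Whether they came from separate infections is not stated, so p-values measure the spread between these arrays, which may be technical.

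Both targets fell in the cells meant to lack them. Wapl intensity was 2500 and 2648 with Empty Vector, against 929 and 1005 after Wapal shRNA1 and 235 and 217 after shRNA2. Smc3 intensity was 1536 and 1555 in the controls, against 187 and 176 after Smc3 shRNA1 and 223 and 189 after shRNA2. The ESC markers Pou5f1 (12.89 to 13.23 in log2 over the 10 arrays), Nanog (11.72 to 12.97) and Sox2 (12.07 to 12.56) were bright on every array, whereas the feeder cell collagens Col1a1 (4.08 to 4.49) and Col3a1 (2.65 to 2.99) and the trophectoderm factor Cdx2 (4.69 to 5.24) stayed dim. Over all probe sets the arrays also fell into 2 sets, called sides here, which cross the groups and are not given by the labels. Side A held Empty Vector replicate 1, both Wapal shRNA1 and both Smc3 shRNA2 arrays, and side B the other 5. Levels on the sides did not overlap for 941 of all 18193 genes and for 0 of the 52 factors. With so few factors, this does not set them apart from all genes. A comparison of the hairpins of 1 target runs along the sides, so each factor that differed between hairpins is also given against the Empty Vector array of its own side.

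The sequences below are the 250 bases before the RefSeq start of the 4 factors whose level differed between the Smc3 hairpins, shown because these were the widest differences between hairpins among the 52. All 4 lie on the minus strand of GRCm38.p6 and are written 5′ to 3′ along the gene, with each CG dinucleotide in capitals, the base step that DNA methylation acts on and in which Polycomb target promoters tend to be rich. They lie at chr1:89931177-89931426 for Gbx2, chr2:79456637-79456886 for Neurod1, chr2:116064620-116064869 for Meis2 and chr12:57546112-57546361 for Foxa1, and the start of the gene follows the last base shown.
Gbx2: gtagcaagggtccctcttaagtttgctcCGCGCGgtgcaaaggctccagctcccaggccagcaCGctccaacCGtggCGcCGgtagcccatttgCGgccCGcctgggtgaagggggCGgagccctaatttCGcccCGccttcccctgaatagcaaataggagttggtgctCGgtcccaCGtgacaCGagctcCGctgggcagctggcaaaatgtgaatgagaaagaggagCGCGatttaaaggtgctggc
Neurod1: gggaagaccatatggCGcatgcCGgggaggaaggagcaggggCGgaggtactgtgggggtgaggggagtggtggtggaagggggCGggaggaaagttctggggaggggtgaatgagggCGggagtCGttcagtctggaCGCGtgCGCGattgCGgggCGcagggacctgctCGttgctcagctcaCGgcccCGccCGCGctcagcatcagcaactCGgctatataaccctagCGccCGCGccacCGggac
Meis2: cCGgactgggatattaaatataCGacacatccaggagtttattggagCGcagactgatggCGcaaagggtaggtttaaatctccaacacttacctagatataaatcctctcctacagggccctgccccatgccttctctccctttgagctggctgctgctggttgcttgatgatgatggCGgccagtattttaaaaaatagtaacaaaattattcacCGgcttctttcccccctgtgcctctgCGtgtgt
Foxa1: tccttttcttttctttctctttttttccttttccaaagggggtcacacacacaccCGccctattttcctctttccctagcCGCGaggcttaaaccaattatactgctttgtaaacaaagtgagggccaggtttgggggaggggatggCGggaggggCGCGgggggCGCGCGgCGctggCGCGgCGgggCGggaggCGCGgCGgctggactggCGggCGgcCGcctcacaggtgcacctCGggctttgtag
The letters CG occur 18 times in the Gbx2 stretch, 22 times in that of Neurod1, 21 times in that of Foxa1 and 7 times in that of Meis2. Stretches of the same length before 17486 protein-coding genes held CG in 92.7% of cases, with a median of 10. At least as many as Gbx2 had were found in 28.5% of them, and the shares for Neurod1, Foxa1 and Meis2 were 18.8%, 20.8% and 58.8%. The count is the same read on either strand. These windows describe the 4 genes and bear on no array value.

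The factors were dim. RMA, the method that made the values, sets the arrays to nearly the same distribution, and 59.6% to 60.1% of all probe sets lay under 6 in log2 on each array, a range in which signal and background are hard to separate. Averaged over the 10 arrays, 47 of the 52 factors lay under 6, with a median of 4.75 and a range from 2.49 (En1) to 7.74 (Neurod1). On single arrays 44 to 49 factors were under 6. The 5 above it were Foxf1, Eomes, Eya1, Gbx2 and Neurod1, and Neurod1 was the sole factor with a mean above 7. Since each probe set has its own affinity, this order is one of probe brightness and not of transcript number. The SD of the difference between replicate arrays was 0.20 to 0.25 over the factors, close to the 0.19 to 0.25 over all probe sets. In RNA from many cells, a change in the number of cells that express a factor cannot be told apart from a change in RNA per cell, at any of the levels that follow.

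Against Empty Vector, no factor passed the test with Wapal depletion (both hairpins together), and 3 did with Smc3 depletion. With Wapal depletion 0 of 52 rose and 0 fell at an adjusted p under 0.05 by limma, where 2.63% of all genes rose and 4.93% fell. At an unadjusted p under 0.05, 11 factors were higher and 2 lower, where 12.4% and 14.6% of all genes were. With Smc3 depletion Neurod1 and Wt1 rose and Gbx2 fell, that is 2 and 1 of 52, where 6.08% of all genes rose and 3.94% fell. The share of factors called was thus no higher than that of all genes in either direction. Of the 53 names, 49 were measured with Smc3 depletion and not called, 52 with Wapal depletion, and Pax2 was not measured.

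**Figure D1:**
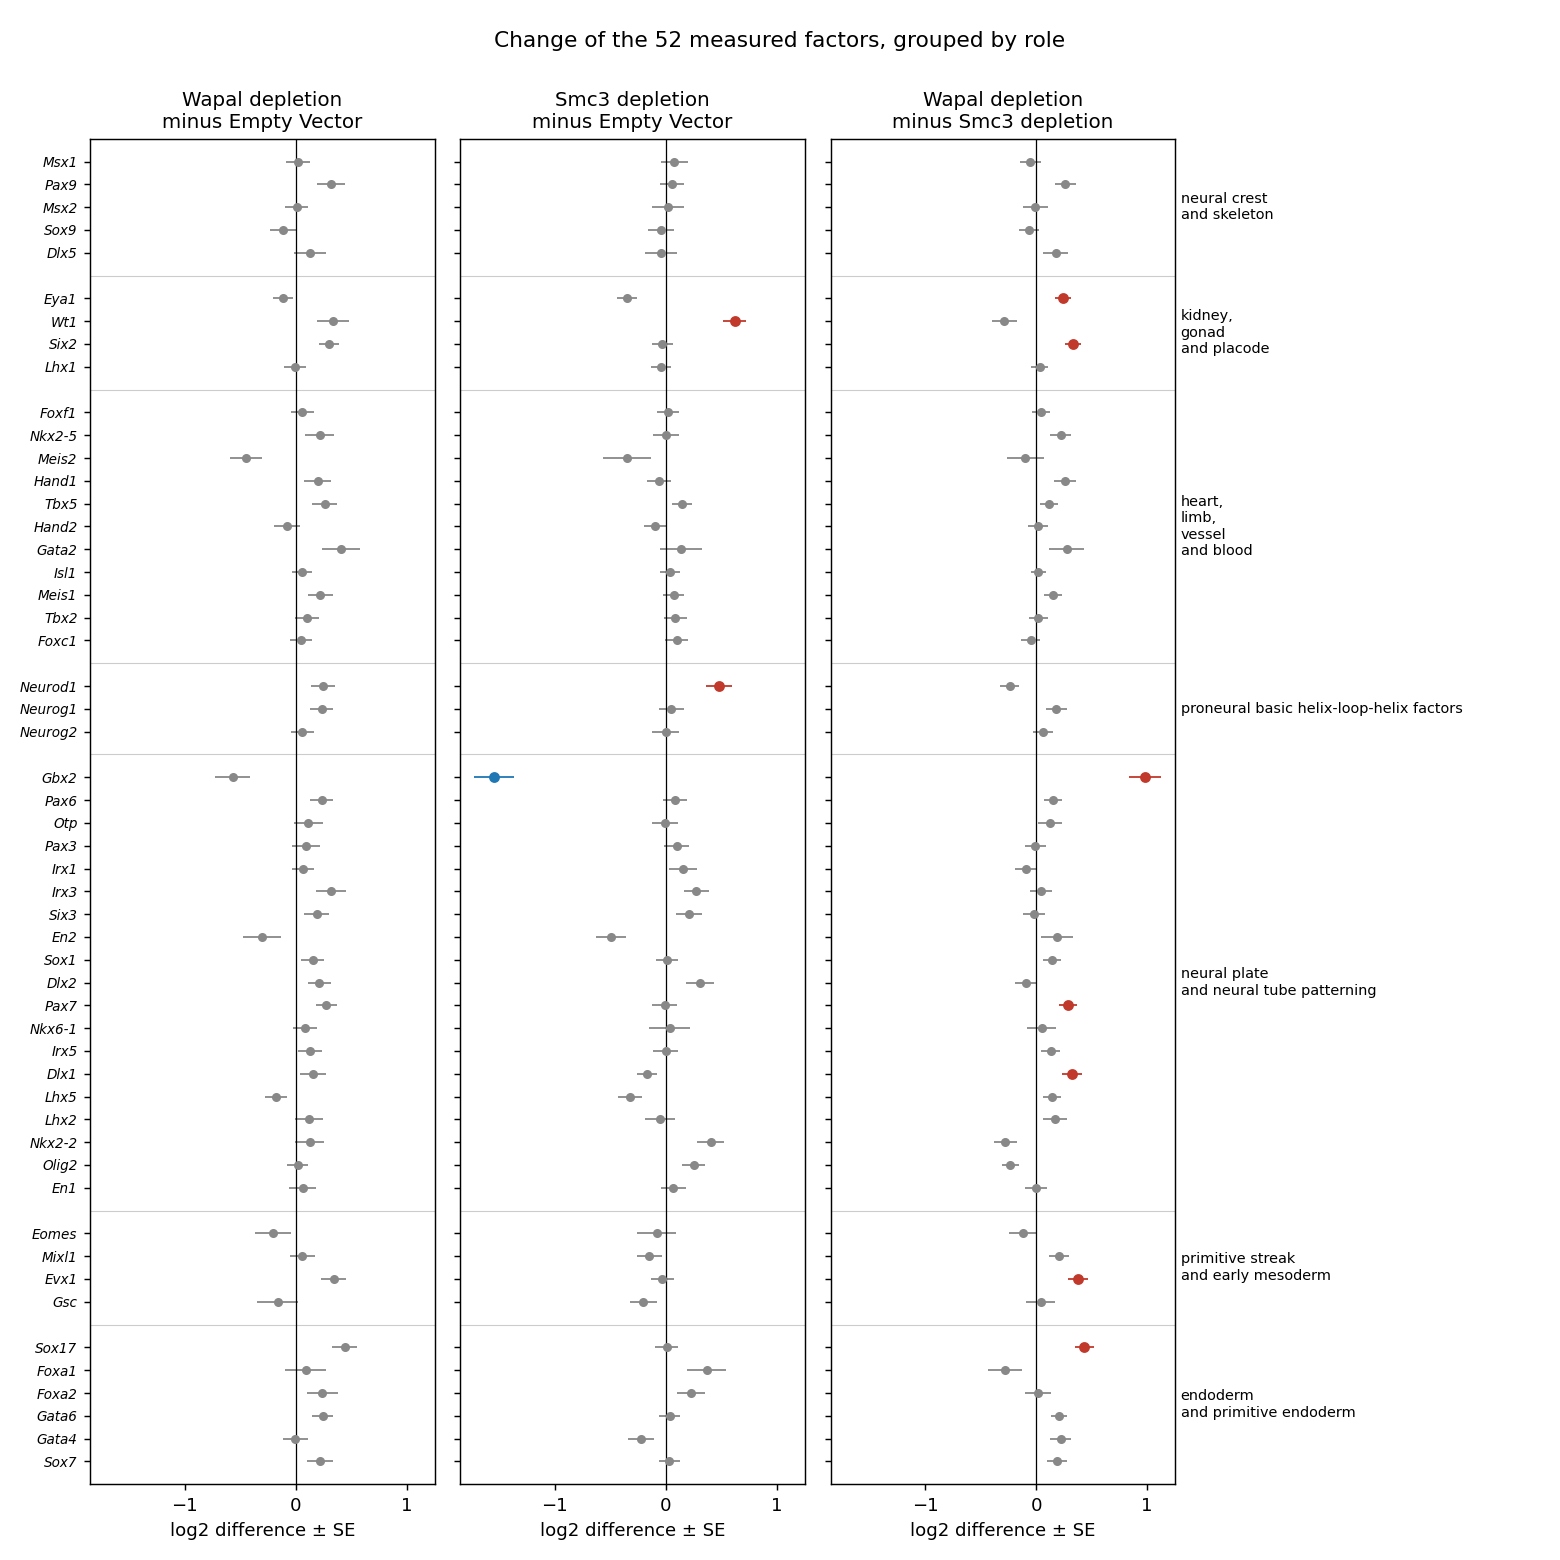
Log2 difference (horizontal axis, ± SE from limma) of each of the 52 measured factors, by role and within a role by brightness, for Wapal depletion minus Empty Vector (left), Smc3 depletion minus Empty Vector (middle) and Wapal minus Smc3 depletion (right). Red points are higher and blue points lower at an adjusted p under 0.05, and grey points did not pass; 0 factors are coloured on the left, 3 in the middle and 7 on the right.

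Gbx2 (probe set 1420337_at), a homeobox factor of the anterior hindbrain that ESCs also express, had the largest change. It lay at 7.89 and 7.39 with Empty Vector, at 7.14 and 7.51 after Wapal shRNA1, 6.87 and 6.77 after Wapal shRNA2, 5.45 and 5.47 after Smc3 shRNA1, and 7.002 and 6.46 after Smc3 shRNA2. All 4 Smc3 arrays were under both controls. Gbx2 fell by 1.55 ± 0.18 (SE) on the log2 scale with Smc3 depletion (adjusted p = 0.0022). It fell with each hairpin, with -2.18 for shRNA1 (adjusted p = 0.00081) and -0.91 for shRNA2 (adjusted p = 0.033), and the hairpins differed by -1.27 (adjusted p = 0.0078). Within the sides the value was -1.94 for Smc3 shRNA1 and -1.16 for Smc3 shRNA2, so both fall and difference were seen there too. The difference between hairpins was smaller there than against both controls. Empty Vector replicate 2 minus replicate 1 was -0.50, in the same direction. The shRNA2 call was lost with an offset of 16 added before log2 (adjusted p = 0.053), and the pooled fall did not pass the methods' t-test, adjusted or not. With Wapal depletion the value was -0.57 ± 0.16 (adjusted p = 0.076), which did not pass, and Wapal shRNA2 alone passed narrowly (-0.82, adjusted p = 0.0496), a call lost both with a second quantile normalization and with an offset added before log2. Within the sides the Wapal hairpins gave -0.56 and -0.57. With Wapal depletion Gbx2 did pass with the array side as a model term, without Empty Vector replicate 2, with dim probe sets left out and with the mean over the probe sets of each gene.

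Neurod1 (1426413_at), a proneural factor that drives neuronal and pancreatic endocrine differentiation, moved in opposite directions with the Smc3 hairpins. It lay at 7.32 and 7.57 with Empty Vector and at 7.75, 7.81, 7.65 and 7.56 with Wapal depletion, so 1 Wapal array lay below the higher control. It was 8.70 and 8.82 with Smc3 shRNA1 but 7.22 and 6.97 with Smc3 shRNA2. Smc3 shRNA1 lies above every other array, and Smc3 shRNA2 below every other array. The rise with Smc3 shRNA1 was 1.31 ± 0.13 (adjusted p = 0.0012), while shRNA2 gave -0.35 (adjusted p = 0.17), and the hairpins differed by 1.66 (adjusted p = 0.00082). Within the sides the values were 1.18 and -0.22. The other Neurod1 probe set, 1426412_at, gave 1.17 with shRNA1 (adjusted p = 0.0039), -0.58 with shRNA2 (adjusted p = 0.066) and passed for the difference between hairpins (adjusted p = 0.0012). The pooled Smc3 value of 0.48 ± 0.12 (adjusted p = 0.043) is therefore a mean of unlike hairpins, and its call was lost in 10 of 16 alternatives, among them the loss of Empty Vector replicate 1 or of any 1 Smc3 array. With Wapal depletion Neurod1 gave 0.25 (adjusted p = 0.21).

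Wt1, a zinc finger factor of kidney and gonad development, was the third. It lay at 4.24 and 4.40 with Empty Vector, and at 4.80 and 5.02 after Smc3 shRNA1 and 5.01 and 4.94 after Smc3 shRNA2, with all 4 Smc3 arrays above both controls. Wt1 rose by 0.62 ± 0.10 with Smc3 depletion (adjusted p = 0.010), and it rose with each hairpin (0.59, adjusted p = 0.021, and 0.65, adjusted p = 0.016). Within the sides the hairpins gave 0.51 and 0.73. With Wapal the hairpins were unlike. Wt1 lay at 5.23 and 4.88 with Wapal shRNA1 (0.73, adjusted p = 0.045) and at 4.45 and 4.08 with Wapal shRNA2 (-0.06, adjusted p = 0.86), while the difference between them did not pass (0.79, adjusted p = 0.066). The Wapal shRNA1 call was lost under the same 2 scalings, and the Smc3 call without Empty Vector replicate 1. The Wt1 probe set, 1425995_s_at, is of a type that can match several transcripts and lies in the dim range.

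**Figure D2:**
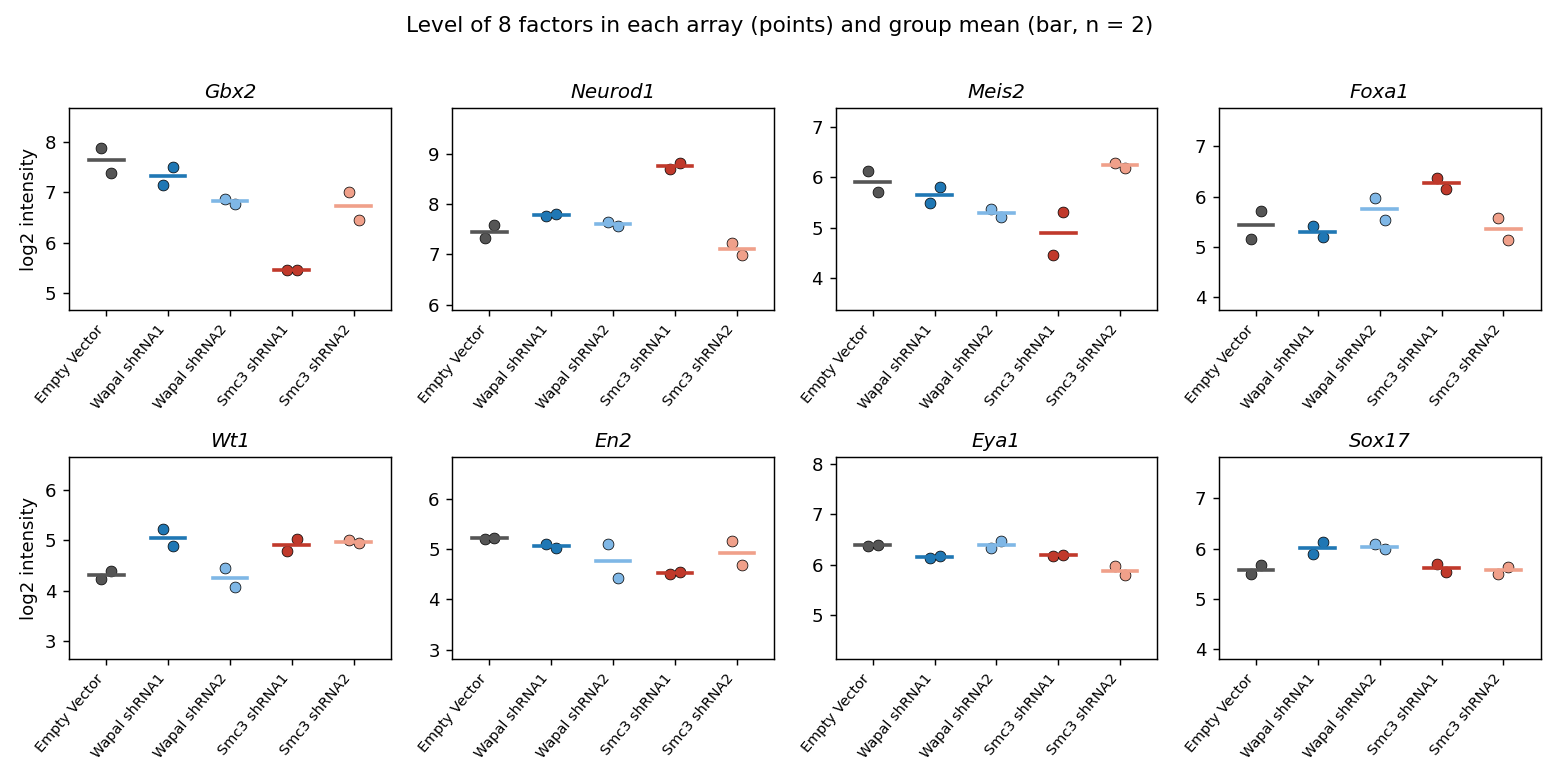
Log2 intensity (vertical axis, spanning 4 units in each panel) of 8 factors on each of the 10 arrays (points), by group, with bars at the group means (n = 2). Gbx2 is lowest and Neurod1 highest with Smc3 shRNA1, Wt1 is above Empty Vector on all 4 Smc3 arrays, and Sox17 is above Empty Vector on all 4 Wapal arrays.

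Taken hairpin by hairpin, the calls came mostly from Smc3 shRNA1. With Smc3 shRNA1, 3 factors rose (Foxa1, Neurod1, Wt1) and 3 fell (En2, Gbx2, Meis2), 6 of 52 where 11.6% of all genes were called. With Smc3 shRNA2, 1 rose (Wt1) and 2 fell (Gbx2, Eya1), where 9.52% of all genes were called. Wapal shRNA1 called Wt1 alone and Wapal shRNA2 called Gbx2 alone, where 6.03% and 4.81% of all genes were called. Between hairpins of 1 target, 4 factors differed for Smc3 (Foxa1, Gbx2, Neurod1, Meis2) where 12.5% of all genes did, and 0 for Wapal where 1.46% did, with 2 factors higher and 2 lower at an unadjusted p under 0.05, where 6.72% and 11.5% of all genes were.

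Meis2 (1417129_a_at), a cofactor of Hox proteins in limb and hindbrain, differed most in the other direction. It lay at 6.12 and 5.71 with Empty Vector, at 5.48 and 5.81 after Wapal shRNA1, 5.38 and 5.21 after Wapal shRNA2, 4.46 and 5.32 after Smc3 shRNA1, and 6.28 and 6.19 after Smc3 shRNA2. It fell with Smc3 shRNA1 (-1.02, adjusted p = 0.042), was 0.32 with shRNA2 (adjusted p = 0.52), and differed between them by -1.35 ± 0.25 (adjusted p = 0.014). The shRNA1 call was lost with the offset (adjusted p = 0.067). Within the sides the hairpins gave -0.82 and 0.12, smaller than against both controls, where Empty Vector replicate 2 minus replicate 1 was -0.41, in the same direction. The probe set 1457632_s_at also fell with Smc3 shRNA1 (-0.79, adjusted p = 0.0090), and it and 1440091_at passed for the difference between hairpins (adjusted p = 0.0023 and 0.019), but 1440091_at did not pass for the fall (adjusted p = 0.15) and 1447861_x_at passed for neither the difference (adjusted p = 0.11) nor the fall (adjusted p = 0.21). With Wapal depletion Meis2 gave -0.45 ± 0.15 (adjusted p = 0.11), and -0.47 and -0.42 within the sides. Its other probe sets gave smaller values there, with -0.10 (1457632_s_at), -0.14 (1447861_x_at) and -0.20 (1440091_at). With Wapal shRNA1 alone these were 0.03, -0.07 and 0.01.

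Foxa1 (1418496_at), a pioneer factor of endoderm, was 5.16 and 5.73 with Empty Vector, 6.38 and 6.15 after Smc3 shRNA1 and 5.58 and 5.14 after Smc3 shRNA2. It rose with shRNA1 (0.82, adjusted p = 0.046), a call lost under both other scalings, and differed between hairpins by 0.91 (adjusted p = 0.029), but the control arrays already lie 0.56 apart along the sides, and within them the values were 0.54 and 0.19. En2 (1418868_at), a homeobox factor of the midbrain and hindbrain border, was 5.20 and 5.23 with Empty Vector, 4.50 and 4.55 after Smc3 shRNA1, and 5.17 and 4.68 after Smc3 shRNA2. It fell with shRNA1 (-0.69, adjusted p = 0.031) and had -0.49 with both hairpins together (adjusted p = 0.065). Eya1 (1457424_at), a coactivator of the Six2 class in kidney and placodes, fell with Smc3 shRNA2 from 6.37 and 6.40 to 5.97 and 5.80 (-0.50, adjusted p = 0.027), and its pooled value of -0.35 did not pass (adjusted p = 0.058). Its other probe sets, 1421727_at and 1443117_at, did not pass in any comparison.

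A direct comparison of the depletions called 7 factors, all higher with Wapal than with Smc3 depletion, where 7.66% of all genes were higher, and 0 lower, where 14.8% were lower. Among the 47 factors under 6 in log2, 5 were higher and 0 lower, where 5.60% and 5.68% of the genes under 6 were. At an unadjusted p under 0.05, 13 factors were higher and 4 lower, where 15.8% and 21.6% of all genes were. Gbx2 (0.98 ± 0.14, adjusted p = 0.0011) is the factor that fell with Smc3. Sox17 (1421657_a_at), an endoderm factor, had the next largest difference (0.44 ± 0.09, adjusted p = 0.0064). It lay at 5.49 and 5.68 with Empty Vector, 5.89, 6.14, 6.10 and 5.99 with Wapal depletion and 5.69, 5.53, 5.51 and 5.65 with Smc3 depletion. All 4 Wapal arrays were above all other arrays, while the Smc3 arrays overlapped the controls. Against Empty Vector Sox17 had 0.44 ± 0.11 with Wapal depletion (adjusted p = 0.056), the lowest adjusted p of any factor there, and 0.52 and 0.36 within the sides. It did pass when all 10 arrays or the array side were in the model.

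The other 5 were dim or small in size. Six2 (1427436_at), which maintains nephron progenitors, was 4.43 and 4.46 with Empty Vector, 4.70, 4.79, 4.80 and 4.70 with Wapal depletion, and 4.23, 4.39, 4.47 and 4.57 with Smc3 depletion, so that the depletions did not overlap (0.33 ± 0.07, adjusted p = 0.010). The primitive streak factor Evx1 gave 0.37 (adjusted p = 0.018), the forebrain factor Dlx1 0.32 (adjusted p = 0.029), the neural crest factor Pax7 0.29 (adjusted p = 0.039) and Eya1 0.24 (adjusted p = 0.044). Sox17, Gbx2 and Six2 kept their call under every alternative tried for this comparison, but Evx1 lost it in 4 of 13, Pax7 in 10 of 13, Dlx1 in 8 of 13 and Eya1 in 8 of 14. The second Pax7 probe set, 1444596_at, gave -0.0055 for the same difference (adjusted p = 0.98), and the second Sox17 probe set, 1429177_x_at, gave 0.57 (adjusted p = 0.037). Against Empty Vector this Sox17 probe set gave 0.07 with Wapal shRNA1 (adjusted p = 0.90) and 0.88 with Wapal shRNA2 (adjusted p = 0.082). The first Sox17 probe set gave 0.43 and 0.46 there. The second is of a type that can match several transcripts.

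Although no factor rose with Wapal depletion, most lay slightly above the controls, and so did most genes of like brightness. Of the 52 factors, 41 had a positive value and 11 a negative one, with a median of 0.12 against 0.01 for all genes. Dim genes as a whole shifted upward in these arrays, so the factors are also set beside genes under 6. There, 39 of 47 factors were positive and the median was 0.13, against 67.3% positive and a median of 0.08 for all 8504 such genes. Quantile normalization of the arrays once more lowered the medians to 0.07 and 0.03, and an offset of 16 added before log2 to 0.06 and 0.04. The factors' median was above that of dim genes each time, by less than 0.05, and no test of this gap was made. These counts and medians take 1 probe set per factor and per gene. A further 41 probe sets, of 28 of the factors, are not in them. With Wapal depletion those lay on both sides of 0, from -0.47 (Sox1) to 0.47 (Sox17).

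**Figure D3:**
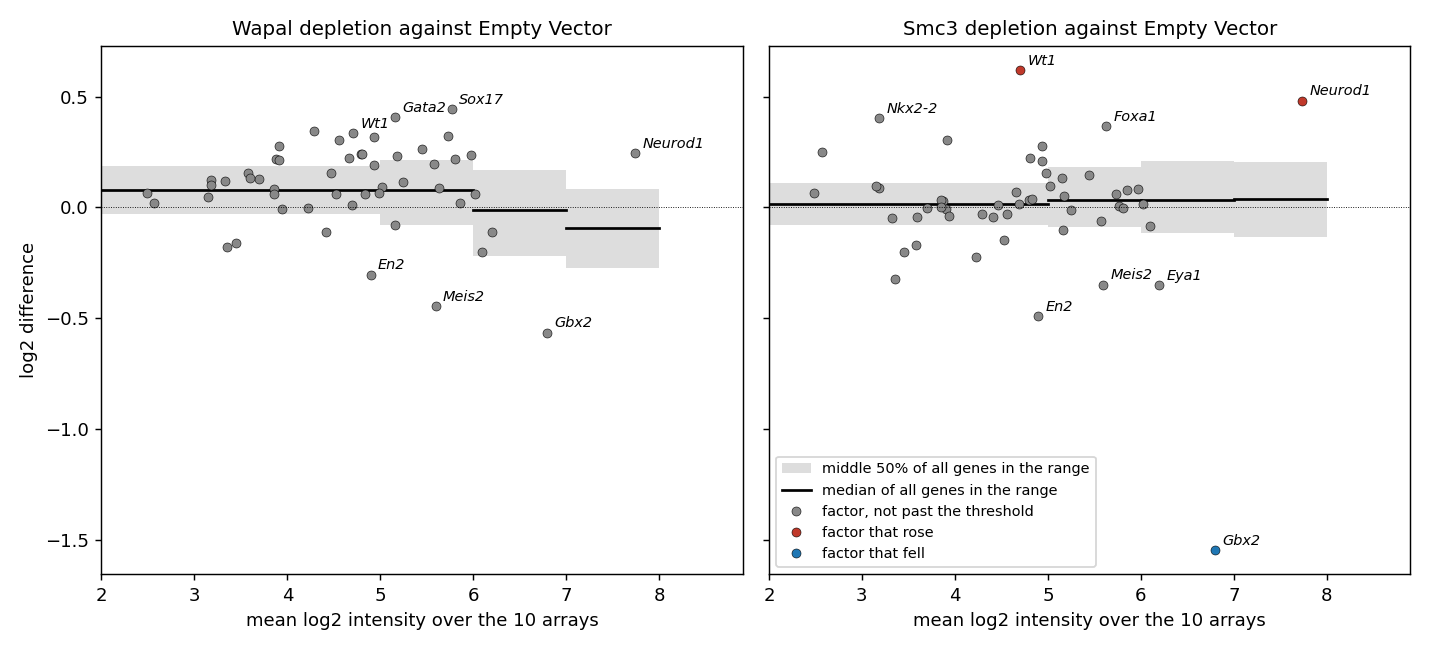
Log2 difference from Empty Vector (vertical axis) of the 52 factors (points) against their mean log2 intensity over the 10 arrays (horizontal axis), for Wapal (left) and Smc3 depletion (right), over the median (line) and middle 50% (grey) of all genes in each range of brightness. With Wapal depletion, most dim factors and the median dim gene lie above 0; with Smc3 depletion Gbx2, Wt1 and Neurod1 stand apart from the rest.

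By finer ranges, 27 of 33 factors under 5 were positive with Wapal depletion, with a median of 0.12 against 0.08 for the 6042 genes there. Between 5 and 6, 12 of 14 were, with a median of 0.21 against 0.08 for 2462 genes. The 4 factors between 6 and 7 had a median of -0.16 against -0.01. Array by array, the median of the 47 dim factors lay 0.12 and 0.13 above the Empty Vector mean with Wapal shRNA1 and 0.19 and 0.12 above it with Wapal shRNA2, where all dim genes lay 0.04, 0.07, 0.10 and 0.09 above. On the Smc3 arrays the factors' medians ran from -0.03 to 0.06. With Smc3 depletion 27 of the 47 dim factors were positive, with a median of 0.03 against 0.02 for the genes.

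**Figure D4:**
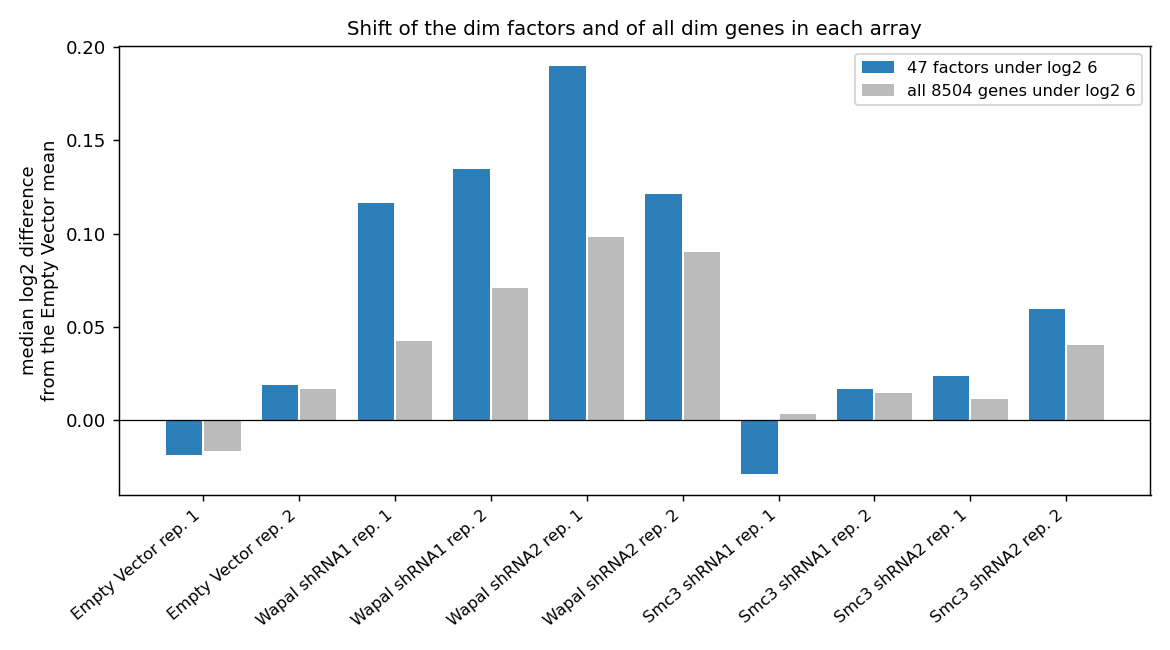
Median log2 difference of each array from the Empty Vector mean (vertical axis), for the 47 factors (blue) and all 8504 genes (grey) with a mean under 6 in log2. The blue bars reach 0.12 to 0.19 on the 4 Wapal arrays, above the grey bars there, and stay between -0.03 and 0.06 on the 4 Smc3 arrays.

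Counting arrays that do not overlap gave a like picture. All 4 Wapal arrays were above both controls for 14 factors (Gata6, Sox7, Sox17, Evx1, Sox1, Pax6, Pax7, Six3, Dlx2, Neurog1, Tbx5, Meis1, Six2, Pax9), against 16% of all genes and 19.5% of those under 6, and below both for En2 and Lhx5, against 17.1% of all genes and 5.96% of those under 6. All 4 Smc3 arrays were above both controls for 6 factors (Nkx2-2, Olig2, Six3, Dlx2, Tbx5, Wt1), against 13.9% of all genes and 10.8% of those under 6. They were below both for 4 (En2, Gbx2, Lhx5, Eya1), against 13.1% of all genes and 7.95% of those under 6. All 6 of the former lie under 6, as do En2 and Lhx5 of the latter. The Wapal and Smc3 comparisons share the Empty Vector arrays, so names in both lists are no separate evidence. Each list takes 1 probe set per factor. Other probe sets of the 14 gave unlike values with Wapal depletion. They were -0.47 (Sox1), -0.22 and 0.10 (Six3), -0.05 (Sox7), 0.02 and 0.05 (Gata6), 0.01 (Neurog1) and 0.03 (Tbx5). For the rest they were -0.04 to 0.37 (Pax6), 0.09 and 0.15 (Pax9), 0.15 and 0.37 (Meis1), 0.31 (Pax7) and 0.47 (Sox17).

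By role, the 6 endoderm factors had a median of 0.23 with Wapal depletion and 0.03 with Smc3 depletion. Gata6, Gata4 and Sox7, factors of primitive endoderm in the early embryo, gave 0.24, -0.0027 and 0.22 with Wapal depletion. Their other probe sets gave 0.02 and 0.05 for Gata6, -0.06 for Gata4 and -0.05 for Sox7. Of 12 other primitive endoderm markers, 3 fell with Wapal depletion (Lama1 -1.09, Col4a1 -0.63, Col4a2 -0.46), whereas 3 rose with Smc3 depletion (Cubn 0.85, Pdgfra 0.51, Sparc 0.39). Over all genes, 4.93% fell with Wapal depletion and 6.08% rose with Smc3 depletion. In the direct comparison 8 of the 12 were lower with Wapal than with Smc3 depletion and 0 higher (median -0.39). Of all genes, 14.8% were lower and 7.66% higher there, and the 6 endoderm factors had a median of 0.20. The summed level of the 12 markers was 11.59 and 11.71 in log2 with Empty Vector. It was 11.50 to 11.71 with Wapal and 11.89 to 12.07 with Smc3 depletion, and Pdgfra stayed dim (4.33 to 5.39). Foxa3, a relative of Foxa1, rose with Smc3 depletion (0.56, adjusted p = 0.0082). Whether these markers have a part in the values of Sox17 or Foxa1 was not tested.

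The 4 primitive streak factors had no call against Empty Vector. Eomes, the brightest of them and a T-box factor also of trophoblast, was 5.90 and 6.52 in the controls and 5.73 to 6.28 on the 8 other arrays, so all but 1 of the depleted arrays lay between the controls. A second Eomes probe set, 1435172_at, was lower with Wapal than with Smc3 depletion (-0.44, adjusted p = 0.0057), a difference the first did not show (-0.12, adjusted p = 0.57). The trophectoderm list has 10 markers that include the factor Hand1. With Wapal depletion 2 rose (Plet1 0.87, Krt8 0.46), where 2.63% of all genes did. With Smc3 depletion 1 fell (Tfap2c -1.90), where 3.94% of all genes did. The summed level of the list differed between the hairpins and between the sides, the controls included. It was 9.64 and 9.99 with Empty Vector, 9.66 to 9.72 with Wapal shRNA1 and 10.22 to 10.23 with Wapal shRNA2. With Smc3 shRNA1 it was 10.18 to 10.29, and with Smc3 shRNA2 9.30 to 9.33. Every side A array (9.30 to 9.72) was below every side B array (9.99 to 10.29). The factors that differed between the Smc3 hairpins thus differed in arrays that also differed in these markers, and the part of the latter was not tested.

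Of the 19 neural factors, 16 were positive with Wapal depletion (median 0.12) and 11 with Smc3 depletion (median 0.03). Gbx2 was the sole call among them against Empty Vector with both hairpins of a target together. Nkx2-2, a factor of the ventral neural tube, was 3.11 and 2.83 with Empty Vector and 3.33, 3.45, 3.22 and 3.50 with Smc3 depletion (0.40, adjusted p = 0.092), near the lower end of the array's range. A dimmer Sox1 probe set, 1438729_at, fell with Smc3 depletion (-0.67, adjusted p = 0.046), while the brighter one that stands for Sox1 gave 0.011 (adjusted p = 0.97). The other proneural factors, Neurog1 and Neurog2, had 0.23 and 0.06 with Wapal depletion and 0.05 and -0.00039 with Smc3 depletion.

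The 11 factors of heart, limb, vessel and blood had 9 positive values with Wapal depletion (median 0.10) and 7 with Smc3 depletion (median 0.04). Gata2, a blood and endothelial factor, had 0.41 ± 0.17 with Wapal depletion (adjusted p = 0.20), from 4.72 and 5.15 with Empty Vector to 5.07, 5.56, 5.48 and 5.26, and 1 Wapal array lay below the higher control. The second Gata2 probe set, 1428816_a_at, had the opposite sign, with -0.14 (adjusted p = 0.42). Foxf1, the brightest of this role, ranged from 5.80 to 6.23 over all arrays and gave 0.06 and 0.02. The 5 neural crest and skeleton factors had medians of 0.02 and 0.02, and Msx1, the brightest, gave 0.02 and 0.08. Of the kidney, gonad and placode factors, Wt1 was the sole call against Empty Vector with both hairpins of a target together.

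Transcription factors on a further list, drawn up as relatives of the factors, behaved much as the factors did. Not all of the list are from the same gene families. The POU factor Pou3f1 and the nuclear receptor Nr2f2, for example, have no family member among the factors. Of 131 listed, 120 were measured and 107 of these lay under 6. With Wapal depletion 0 rose and 0 fell, where 2.63% and 4.93% of all genes did, and the median was 0.09. At an unadjusted p under 0.05, 21 were higher and 3 lower, where 12.4% and 14.6% of all genes were. With Smc3 depletion Pou3f1 (1.63, adjusted p = 0.00025), a POU factor of epiblast and neural progenitors, and Foxa3 rose, and Tcf15 (-1.25, adjusted p = 0.00046), Hhex (-0.52, adjusted p = 0.019) and Lhx6 (-0.49, adjusted p = 0.029) fell. Over all genes, 6.08% rose and 3.94% fell with Smc3 depletion. Between the depletions 9 genes of this list were higher with Wapal and 4 lower, of 120, where 7.66% and 14.8% of all genes were. The largest differences were those of Pou3f1 (-1.12), Tcf15 (0.86), Hhex (0.63), Six4 (0.60), Foxa3 (-0.57) and Nr2f2 (0.37).

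Genes that encode Polycomb subunits and cofactors moved in both directions, 30 of 32 being measured. With Wapal depletion Pcgf5 (0.67) and Yaf2 (0.42) rose, and Epop (-1.70), a cofactor of the methylating complex, and Cbx6 (-0.59), a reader of the mark, fell. With Smc3 depletion Bcor (0.50), Yaf2 (0.48) and Jarid2 (0.41) rose and Cbx6 (-1.03) and Epop (-0.96) fell. Over all genes, 2.63% rose and 4.93% fell with Wapal depletion, and 6.08% rose and 3.94% fell with Smc3 depletion. Between the depletions 3 genes of this list were higher with Wapal and 4 lower, where 7.66% and 14.8% of all genes were. These were led by Epop (-0.75), Bcor (-0.65), Jarid2 (-0.57), Cbx6 (0.44), Suz12 (0.25) and Pcgf2 (0.25). The summed level of the list was 15.63 to 15.72 on all arrays. Whether these changes bear on any factor was not tested.

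Among 12 ESC markers, Fut9 rose (1.34) and Klf4 (-0.76) and Esrrb (-0.66) fell with Wapal depletion, and with Smc3 depletion Fut9 rose (0.80) and Klf4 (-0.79), Esrrb (-0.77), Nanog (-0.71) and Zfp42 (-0.44) fell. Pou5f1 gave -0.02 and -0.16 and Sox2 -0.25 and -0.16, none past the threshold. Of 12 fibroblast markers, Twist1 (0.67) and Dcn (0.48) rose and Thy1 (-0.65) and Vim (-0.47) fell with Wapal depletion, and Twist1 (0.64) and Dcn (0.52) rose and Thy1 (-0.92) fell with Smc3 depletion. Their summed level was 11.96 and 12.18 with Empty Vector, 11.58 to 11.85 with Wapal and 12.22 to 12.65 with Smc3 depletion. Col1a1 and Col3a1, the defining feeder transcripts, gave values between -0.11 and 0.07. The shares of all genes beside both lists were 2.63% risen and 4.93% fallen with Wapal depletion. With Smc3 depletion they were 6.08% and 3.94%.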

How the data were processed

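Total RNA of 10 samples was measured on Affymetrix mouse genome arrays. The deposited values are intensity values on a linear scale, made by the authors with RMA (background correction, quantile normalization and a summary per probe set), whose version and set of arrays are not given in the sources used here. The table has 45101 probe sets, of which 64 are array controls and the other 45037 entered the tests without a filter. Names came from the 34945 probe sets with 1 symbol, which cover 18193 genes (932 had several symbols and 9160 none). After log2, a model with 1 mean per group was fitted in limma 3.58.1 (lmFit, eBayes, two-sided, R 4.3.3). Errors are its standard errors. The Benjamini-Hochberg adjustment ran over the 45037 probe sets, and 0.05 was the threshold. A depletion is the mean of its 2 hairpins minus Empty Vector on 6 arrays, and the depletions were compared on all 10. The fit was tested on simulated data.

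Groups follow the GEO labels. A table that accompanies the study exchanges the labels of 2 arrays, replicate 2 of Wapal shRNA1 and replicate 1 of Wapal shRNA2, which leaves the pooled Wapal value as it is but would change every value of a single Wapal hairpin. Wapl intensity paired the arrays under the GEO labels (929 with 1005 and 235 with 217) and not under the exchange. The factors, roles and gene lists were chosen with earlier results of these data known. Named with values were all factors that passed a comparison, those with a mean of 7 or more, the 6 with the largest change in each depletion, the brightest of each role, up to 6 passing genes of a list, and defining markers. Promoter windows came from RefSeq (GRCm38.p6). Only 35 of the 53 factors had one (66.0%, under the 80% set as a minimum), so the planned check of base composition is void. Wt1, Eya1 and Sox17 had none.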

Additional observations from a re-analysis of the deposited data

Results flagged for a closer look

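Tested differences between treatments drew attention to 10 factors. Between the depletions, values were higher with Wapal than with Smc3 for Gbx2 (0.98), Sox17 (0.44), Evx1 (0.37), Six2 (0.33), Dlx1 (0.32), Pax7 (0.29) and Eya1 (0.24), all in log2 and past an adjusted p of 0.05 by limma. Between the Smc3 hairpins (shRNA1 minus shRNA2), Neurod1 (1.66) and Foxa1 (0.91) were higher, and Meis2 (-1.35) and Gbx2 (-1.27) lower. The latter comparison runs along the sides of the arrays. Smc3 intensity itself was 187 and 176 with shRNA1 and 223 and 189 with shRNA2. Against the Empty Vector array of the same side, shRNA1 and shRNA2 gave 1.18 and -0.22 for Neurod1, 0.54 and 0.19 for Foxa1, -0.82 and 0.12 for Meis2, and -1.94 and -1.16 for Gbx2.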

How the results depend on the processing

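With 2 arrays a group and most factors near background, small differences could not be resolved. The direction of each call made with both hairpins held under all alternatives tried. With Wapal depletion, where no factor passed, Sox17 was higher with all 10 arrays in 1 model (count 1) and with the array side in the model (1), and Pax7 and Six2 with the mean of all probe sets (2). Gbx2 was lower with dim probe sets left out, with the side in the model and with the mean of probe sets (1 each), and 0 to 1 factors were lower when 1 array was left out, the 1 being Gbx2 without Empty Vector replicate 2. With Smc3 depletion the count that rose went from 2 to 1 with dim probe sets left out, with the side in the model and without probe sets of the types that can match several transcripts. In the first and last of these Wt1 was not tested, so its call there was not put to a test. The count was 0 to 2 with 1 array left out (0 without Empty Vector replicate 1). The count that fell went from 1 to 2 with the offset of 16, dim probe sets left out and all 10 arrays in 1 model (Eya1 added) and with the mean of probe sets (En2 added), and was 1 to 2 with 1 array left out. Between the depletions, higher calls went from 7 to 2 with dim probe sets left out, when 5 factors were tested, and to 3 to 7 with 1 array left out, with 3 without Wapal shRNA1 replicate 2, Wapal shRNA2 replicate 2 or Smc3 shRNA2 replicate 2. Lower calls were 1 with quantile normalization (Olig2), the offset and dim probe sets left out (Neurod1 in both), and 0 to 1 with 1 array left out (Olig2 without either Empty Vector array).

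For single hairpins, Wapal shRNA1 had 0 higher under quantile normalization, the offset and without dim probe sets, and Wapal shRNA2 had 0 lower under the first 2. Without dim probe sets Smc3 shRNA1 had 1 higher and 1 lower, and Smc3 shRNA2 had 0 higher. Only 5 factors were tested without dim probe sets, for every hairpin. Wt1, Foxa1, En2 and Meis2 were not among them, so their calls were not put to a test there. Smc3 shRNA2 had 1 lower with the offset. The methods' t-test at an unadjusted p under 0.05 gave 5 factors higher with Wapal depletion (Gata6, Sox17, Pax6, Pax7, Six2), against 18.9% of all genes in either direction, and 4 higher (Nkx2-2, Olig2, Tbx5, Wt1) and 1 lower (Lhx5) with Smc3 depletion, against 14.9%. After Benjamini-Hochberg it gave 0 in both. Same-numbered replicates did not deviate together (correlations of -0.16 to 0.06), which gave no sign of pairing but cannot exclude it. The Empty Vector replicates also lie on different sides, unlike those of the other groups. With the replicate block, 0 factors were called with Wapal depletion, 1 rose and 1 fell with Smc3 depletion (Wt1 and Gbx2), and 5 were higher with Wapal than Smc3. The causes were not tested.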
